A study of Mus musculus with 6 samples.

Results

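Ribosome biogenesis and nucleolar genes were examined in freshly sorted mouse muscle stem cells. The set holds 30 protein-coding genes, named by symbol for their work in RNA polymerase I transcription, small nucleolar ribonucleoproteins (snoRNPs) and pre-rRNA processing, and all 30 had a row among the 49652 genes counted. KO libraries (n = 3) came from Cre-positive animals of the OPA1-Pax7-CreERT2 line and WT libraries (n = 3) from Cre-negative animals of that line. Both groups were 8 to 10 weeks old, received tamoxifen by gavage on 5 days, were uninjured, and gave hindlimb cells 3 days later. The sort kept cells positive for alpha-7 integrin and VCAM and negative for Sca1, CD45 and CD31. In this line the Pax7 gene drives the tamoxifen-dependent Cre, so recombination is directed to Pax7-expressing cells. The series has no Cre-positive animals with intact Opa1, so Cre and the loss of Opa1 cannot be told apart. How many animals gave each library is not stated, so p-values measure only the spread between these libraries, which may be technical.

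Ribosomes are built in the nucleolus. RNA polymerase I transcribes the rRNA precursor, box C/D and box H/ACA snoRNPs modify it, and large assemblies of processing factors cut and fold it into the small and large subunits. In quiescent muscle stem cells, ribosome production is low, and it is known to increase when the cells enter activation and growth. Many of these genes are known targets of MYC, which binds the E-box CACGTG.

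Gene counts per library were 41410136 to 56591699 in KO and 48329905 to 56606886 in WT, and the 30 genes had between 432 and 39114 counts in each library, so the spread between libraries and not counting error limited precision. Opa1 averaged 26.3 ± 8.47 CPM in KO and 56.1 ± 21.4 CPM in WT (SD, n = 3 each; CPM, counts scaled to library size after TMM), with 34.4 CPM in KO replicate 2 against 31.4 CPM in WT replicate 2. That WT sample, which lay inside the KO range for the targeted gene, is called the library labelled WT replicate 2, and its value is the second wherever 3 WT values are listed. The gene total also takes in reads from Opa1 exons that Cre does not remove. Pax7, Myf5 and Vcam1, which define these cells, had at least 13479 counts in every library, and Ptprc (CD45) had at most 30. The other genes of the negative gate had counts in every library, Ly6a (Sca1) from 242 to 1090 and Pecam1 (CD31) from 217 to 1276.

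Promoter sequences are shown for the members that hold an E-box. Whether the E-box has a part in the order across libraries, described below, was not tested. RefSeq promoters on GRCm38.p6, covering 250 bases before to 50 bases after the annotated start, matched 25 of the 30 symbols. Bop1, Fbl, Npm1, Rrp12 and Rrs1 had no entry in that table. The motif CACGTG, which reads the same on both strands, occurred in 6 of these 25 genes (24%), against 8.09% of all 27025 symbols in the table and 11.3% of the 11497 symbols that were also tested for expression. In Nop2 the E-box began 60 bases before the RefSeq start, and in the other 5 it lay after that start, at bases 3 to 41 counted from it. GENCODE M21, used below for gene positions, begins Wdr43 at 71615895, upstream of its window printed here. These positions therefore depend on the annotation. Capitals mark the E-box, and each sequence runs 5′ to 3′ on the strand of its gene.
Nop2, chr6:125131733-125131882, plus strand: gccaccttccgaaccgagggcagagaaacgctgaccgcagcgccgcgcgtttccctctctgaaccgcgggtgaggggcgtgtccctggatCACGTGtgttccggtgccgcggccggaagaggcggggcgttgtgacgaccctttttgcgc
Pes1, chr11:3963965-3963994, plus strand: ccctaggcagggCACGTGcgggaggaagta
Wdr43, chr17:71616220-71616249, plus strand: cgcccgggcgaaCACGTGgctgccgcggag
Tsr1, chr11:74898092-74898121, plus strand: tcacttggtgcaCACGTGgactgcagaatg
Utp20, chr10:88826765-88826794, minus strand: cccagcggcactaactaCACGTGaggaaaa
Mybbp1a, chr11:72441347-72441376, plus strand: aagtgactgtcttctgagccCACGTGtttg
A match in these windows is a description of letters and not evidence of binding.

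KO and WT libraries had similar levels of the 30 genes, and none passed the test. By edgeR's quasi-likelihood test with Benjamini-Hochberg adjustment over 18832 genes, 0 of 30 members were called, against 0% of all genes tested, with 0 members and 393 genes at an unadjusted p under 0.05 (2.09%). DESeq2 called 20 genes (0.106%), none of them a member, and limma voom called 0. Opa1, the targeted gene, was not called by edgeR either (log2 fold change -1.09, SE 0.37, unadjusted p 0.0215, adjusted p 0.99998). A gene that was not called is thus not shown to be unchanged. The members had 9 positive and 21 negative log2 fold changes (KO minus WT) with a median of -0.04, beside 9599 positive and 9233 negative with a median of 0.0062 over all genes tested. Fold changes ran from -0.31 for Bysl to 0.17 for Utp20, and 27 of 30 were under 0.2 in size. The 95% intervals excluded a 2-fold difference (1 log2 unit) in either direction for 28 members, the exceptions being Bysl and Rrp12. These intervals are for single genes and are not adjusted for the number of genes.

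**Figure D1:**
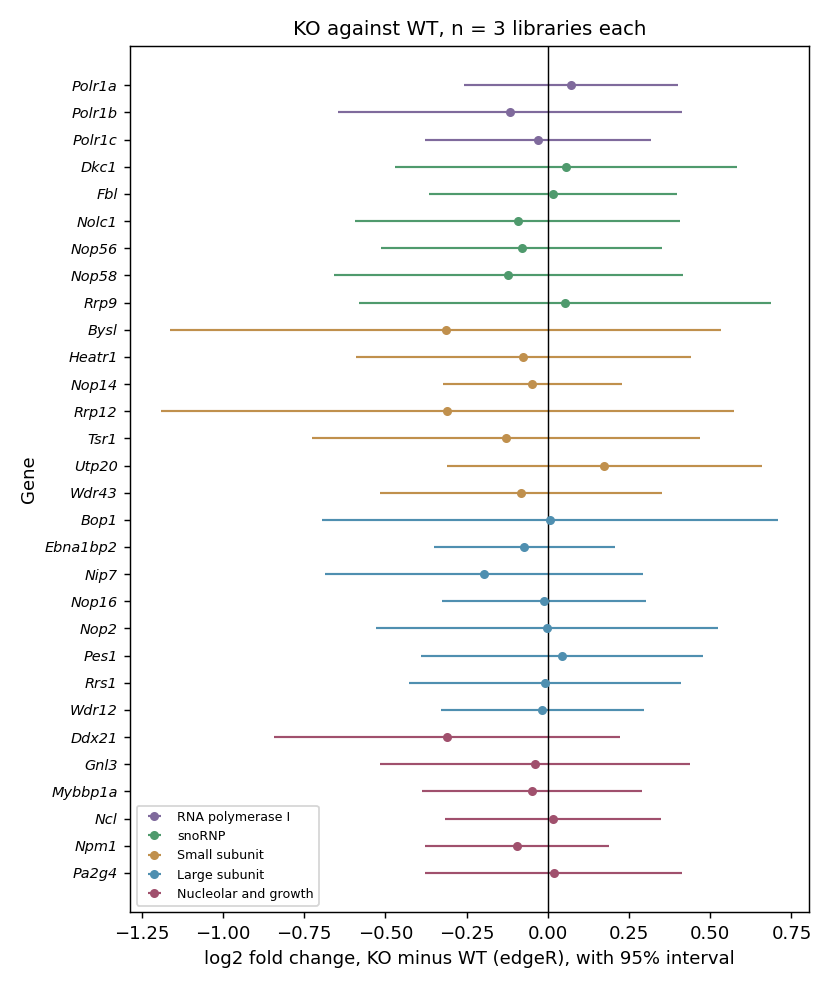
Log2 fold changes (KO minus WT, x axis) of the 30 genes (y axis, coloured by role), with edgeR's 95% intervals from 3 KO and 3 WT libraries. Every interval spans 0, and only those of Bysl and Rrp12 extend past -1.

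Among RNA polymerase I subunits, 1 of 3 fold changes was positive. Polr1a, the largest catalytic subunit, had 60.1, 72.5 and 66.7 CPM in KO replicates 1 to 3, against 58.1 and 67.0 CPM in WT replicates 1 and 3 and 64.7 CPM in the library labelled WT replicate 2. The groups overlapped, with KO replicate 2 the highest (log2 fold change 0.07, SE 0.14). Polr1b, the second-largest subunit, had 61.4, 47.5 and 34.5 CPM in KO, against 55.6, 49.1 and 50.7 CPM in WT. Its KO libraries lay on both sides of the WT range, from the highest to the lowest of the 6 (-0.12, SE 0.22). Polr1c, shared with RNA polymerase III, averaged 89.1 ± 3.04 CPM in KO and 90.9 ± 14.0 CPM in WT (SD, n = 3 each).

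SnoRNP genes had a median log2 fold change of -0.03, with 3 of 6 positive. Dkc1, the pseudouridine synthase of box H/ACA particles, had 232, 151 and 139 CPM in KO, against 189, 169 and 144 CPM in WT. KO replicate 1 was the highest library and KO replicate 3 the lowest, so the KO range enclosed all WT values (0.06, SE 0.22). Nop58, a core protein of box C/D particles, had 226, 156 and 136 CPM in KO, against 208, 205 and 151 CPM in WT (-0.12, SE 0.23). Its partner Nop56 had 435, 317 and 318 CPM in KO, against 413, 403 and 316 CPM in WT (-0.08, SE 0.18). For both, KO replicate 1, WT replicate 1 and the library labelled WT replicate 2 were the 3 highest. Fbl (fibrillarin), the 2′-O-methyltransferase of these particles, averaged 122 ± 7.77 CPM in KO and 121 ± 22.5 CPM in WT (SD, n = 3 each). Nolc1, a chaperone of snoRNPs, averaged 105 ± 29.6 CPM in KO and 112 ± 11.7 CPM in WT, with 139 CPM in KO replicate 1 alone. Rrp9, a protein of the U3 snoRNP, averaged 69.4 ± 17.1 CPM in KO and 66.9 ± 20.5 CPM in WT (SD, n = 3 each).

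Small-subunit factors held both ends of the range, with 1 of 7 fold changes positive and a median of -0.08. Bysl, needed for maturation and export of the small subunit, had 55.2, 35.5 and 24.8 CPM in KO, against 62.5, 50.0 and 31.2 CPM in WT. The groups overlapped over most of their range (-0.31, SE 0.36, 95% interval -1.16 to 0.53). The log2 fold change was -0.668 without KO replicate 1, -0.0789 without KO replicate 3, -0.548 without WT replicate 3 and -0.0747 without WT replicate 1. Of Bysl, 9.37% of annotated exon bases are shared with the antisense gene Ccnd3. Rrp12, an export factor, was the least abundant member, at 13.5, 12.6 and 7.61 CPM in KO, against 20.6, 10.9 and 10.3 CPM in WT (-0.31, SE 0.37). Leaving out WT replicate 1 gave Rrp12 a log2 fold change of 0.0843, and leaving out KO replicate 3 gave -0.0943. Utp20, a scaffold of the small-subunit processome, had 46.4, 58.3 and 55.4 CPM in KO, against 50.8, 55.5 and 35.6 CPM in WT. It was lowest in WT replicate 3 (0.17, SE 0.21), and without that library its log2 fold change was 0.0051. Heatr1, which also takes part in rRNA transcription, averaged 41.2 ± 6.69 CPM in KO and 43.5 ± 9.73 CPM in WT (SD, n = 3 each). Wdr43 averaged 217 ± 19.6 CPM in KO and 229 ± 48.7 CPM in WT, and Tsr1, a late maturation factor, 56.9 ± 16.5 CPM in KO and 62.2 ± 13.9 CPM in WT. For Tsr1, 32.3% of annotated exon bases are shared with the antisense gene Srr, and the strand setting of the counting is not given in the sources used here.

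Nop14, a small-subunit processome protein, was the only member whose groups did not overlap, against 6.55% of all genes tested. Its KO libraries lay below all WT libraries, as for 3.12% of all genes, and 0 members had every KO library above every WT library, against 3.43% of all genes. It had 71.2, 69.6 and 71.6 CPM in KO, against 71.6, 74.2 and 73.8 CPM in WT. The highest KO and the lowest WT library differed only beyond the third digit, and the highest library was 1.065 times the lowest, the narrowest spread of the 30. Its log2 fold change was -0.05 (SE 0.12).

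Large-subunit factors had a median log2 fold change of -0.0096, with 2 of 8 positive. Bop1, Pes1 and Wdr12 form the PeBoW complex of pre-rRNA processing. Bop1 had 60.0, 49.0 and 41.7 CPM in KO, against 73.2, 36.3 and 40.5 CPM in WT, so WT held both the highest and the lowest library (0.0062, SE 0.30). Pes1 had 158, 151 and 154 CPM in KO, against 189, 142 and 118 CPM in WT. All its KO values lay within the WT range (0.04, SE 0.18). Wdr12 varied little, at 110 ± 10.8 CPM in KO and 111 ± 8.22 CPM in WT (SD, n = 3 each). Nop2, an rRNA cytosine methyltransferase, had 121, 94.9 and 88.0 CPM in KO, against 126, 104 and 74.6 CPM in WT (-0.0038, SE 0.22). Rrs1, which helps to bring 5S rRNA into the large subunit, followed the same order within each group, at 93.5, 83.9 and 70.5 CPM in KO, against 96.7, 83.4 and 69.2 CPM in WT (-0.0081, SE 0.18). Nip7 averaged 79.7 ± 20.2 CPM in KO and 91.3 ± 11.6 CPM in WT, with a log2 fold change of -0.20 (SE 0.21). Nop16 and Ebna1bp2 had log2 fold changes of -0.01 and -0.07, with standard errors of 0.13 and 0.12.

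The abundant nucleolar proteins and growth-linked factors had a median of -0.04, with 2 of 6 positive. Ncl (nucleolin), which binds pre-rRNA and nucleolar chromatin, had 759, 626 and 593 CPM in KO, against 691, 639 and 626 CPM in WT (0.02, SE 0.14). Npm1 (nucleophosmin), a histone and ribosome assembly chaperone, had 682, 603 and 617 CPM in KO, against 654, 668 and 708 CPM in WT (-0.09, SE 0.12). For Npm1, WT replicate 3 was the highest library, while for Ncl it was KO replicate 1. KO replicates 2 and 3 were the lowest for both genes, though for Ncl KO replicate 2 and WT replicate 3 were nearly equal. Ddx21, an RNA helicase that couples RNA polymerase I and II transcription to rRNA processing, had 120, 66.8 and 78.2 CPM in KO, against 114, 101 and 113 CPM in WT. KO replicates 2 and 3 lay below every WT library and KO replicate 1 above them all (-0.31, SE 0.23, unadjusted p 0.213, the smallest of the 30). Gnl3 (nucleostemin), a GTPase of proliferating cells, averaged 121 ± 24.6 CPM in KO and 125 ± 21.4 CPM in WT (SD, n = 3 each). Mybbp1a, a nucleolar repressor of several transcription factors, averaged 171 ± 14.7 CPM in KO and 177 ± 22.0 CPM in WT. Pa2g4 (EBP1), a ribosome-binding growth regulator, averaged 182 ± 35.3 CPM in KO and 179 ± 13.9 CPM in WT (SD, n = 3 each).

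**Figure D2:**
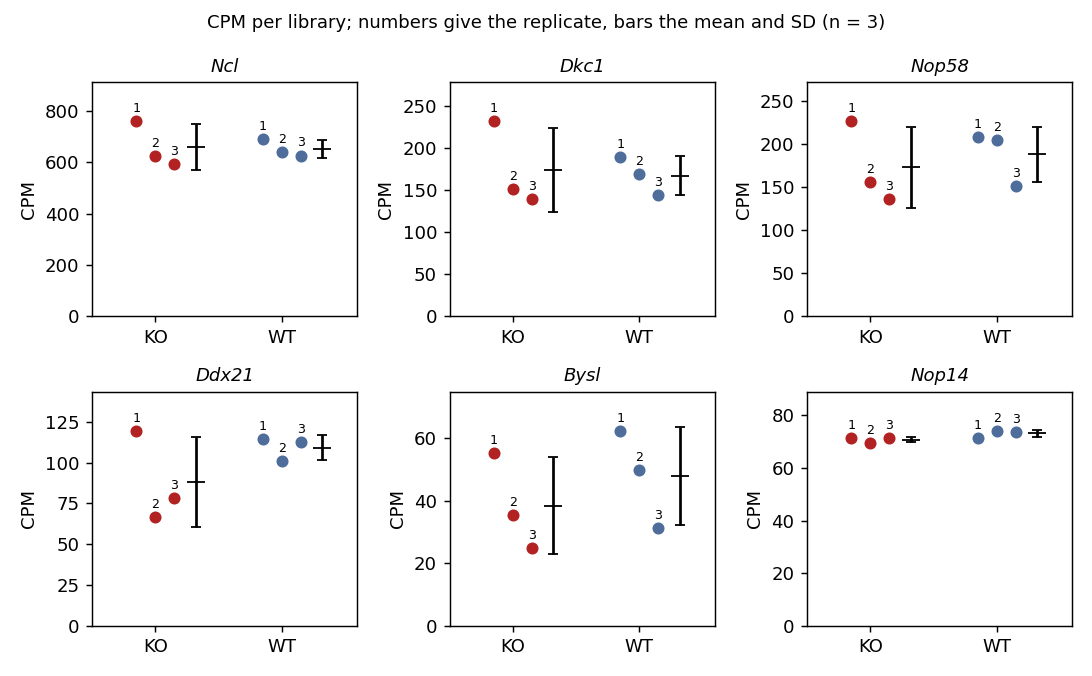
CPM (y axis, from 0) of 6 members in each KO and WT library (points, numbered by replicate; WT 2 is the library labelled WT replicate 2), with mean and SD (n = 3). KO replicate 1 stands above KO replicates 2 and 3 for 5 of these genes, while Nop14 lies between 69.6 and 74.2 CPM in all 6.

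Per length, the levels covered a wide range that was alike in both groups. RPKM (CPM per kilobase of annotated exon, over the union of exons, which includes retained introns) were highest for Npm1, at 238 ± 15.7 RPKM in KO and 254 ± 10.5 RPKM in WT. Nop56 followed at 87.0 ± 16.6 RPKM in KO and 92.0 ± 13.0 RPKM in WT (SD, n = 3 each). Below it, Nop16, Pa2g4 and Ncl, at 64.0 to 68.3 RPKM in both groups, did not differ from each other beyond their spread. The place of Ncl depends on its 10188 annotated exon bases, against 2665 for Npm1. In CPM the 2 genes were close, at 659 for Ncl and 634 for Npm1 in KO. At the low end stood Rrp12, at 2.59 ± 0.73 RPKM in KO and 3.21 ± 1.32 RPKM in WT, below Utp20, Heatr1 and Polr1a at 4.64 to 5.60 RPKM.

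The clearest pattern lay between libraries of the same genotype. KO replicate 1 was the highest KO library for 27 of 30 members (90%), against 46.1% of the 8981 genes whose mean log2 CPM was at or above that of the lowest member, and WT replicate 1 was the highest WT library for 21 (70%), against 39.4%. Those libraries were the 2 highest of all 6 for 21 members (70%), against 21.8% of the 8981 genes. KO replicate 3 was the lowest of the 6 for 13 members (43.3%), against 15.7% of the 8981 genes, and WT replicate 3 for 9 (30%), against 20.1%. The cut for the 8981 genes was set by Rrp12, at a mean log2 CPM of 3.66, while the next lowest member, Heatr1, stood at 5.41. The 8981 genes thus include some less abundant than every other member, and they are not matched to the members in level. The mean log2 CPM of the 30 genes was 6.93, 6.64 and 6.52 in KO replicates 1 to 3, against 6.94 and 6.61 in WT replicates 1 and 3 and 6.73 in the library labelled WT replicate 2. The group means were 6.70 ± 0.21 in KO and 6.76 ± 0.17 in WT (SD, n = 3 each), so the groups differed by less than the spread within either. In these bulk samples, a difference in the number of cells of a kind and in RNA per cell cannot be told apart.

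**Figure D3:**
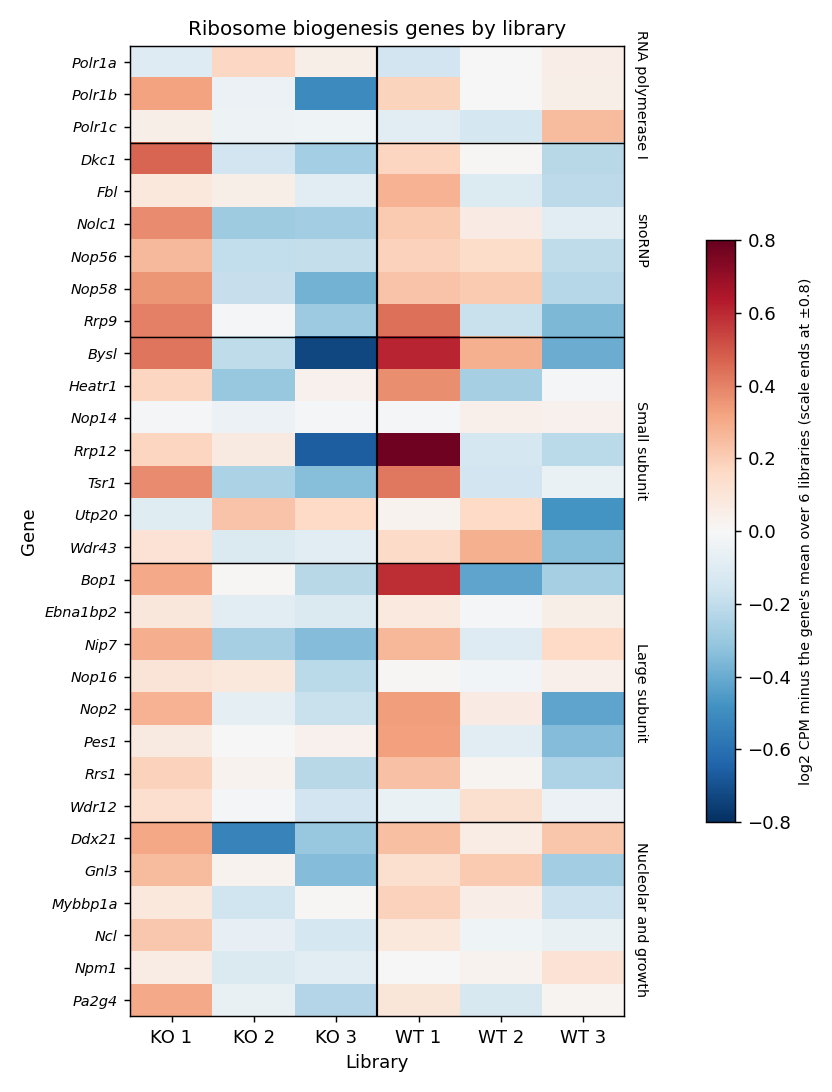
Log2 CPM of each member (rows, by role) in each library (columns, KO left of WT; WT 2 is the library labelled WT replicate 2), centred on the gene's mean over 6 libraries. KO replicate 1 and WT replicate 1 are red in most rows and are the 2 highest libraries for 21 of 30 genes.

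The size of these differences was moderate. The ratio of the highest to the lowest library ran from 1.065 for Nop14 to 2.70 for Rrp12, with a median of 1.54 over the 30 genes, beside 1.59 over the 8981 genes. KO replicate 1 exceeded KO replicate 3 for 27 members, with a median ratio of 1.35, and WT replicate 1 exceeded WT replicate 3 for 24, with a median ratio of 1.30. Over all 18832 genes tested, which include genes less abundant than any member, these medians were 0.981 and 0.993. They were not taken over the 8981 genes alone. Polr1a and Utp20 went the other way within KO, with KO replicate 1 the lowest at 60.1 CPM and 46.4 CPM.

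Cell cycle genes and the share of reads outside genes also differed between libraries of the same genotype. The summed level of 12 cell cycle genes was 852, 125 and 107 CPM in KO replicates 1 to 3, against 399 and 350 CPM in WT replicates 1 and 3 and 115 CPM in the library labelled WT replicate 2. Mki67, a marker of cycling cells, had 78.6, 3.18 and 0.652 CPM in KO, against 34.3, 1.59 and 38.1 CPM in WT, and Aurkb was at 0 counts in the library labelled WT replicate 2. WT replicate 3 was thus among the 3 highest libraries for cell cycle genes but the lowest WT library for 16 of the 30 ribosome biogenesis genes. Reads without a feature made up 11.57%, 15.45% and 17.02% in KO, against 11.15%, 16.27% and 14.64% in WT, lowest in the same 2 libraries in which the ribosome biogenesis genes were highest. The part of these differences in the levels of the members was not tested. Myod1, the myogenic activation factor, had 669, 442 and 279 CPM in KO, against 588, 358 and 163 CPM in WT, the same order within each group as the members' mean. Myc itself, named after its values were seen, had 221, 274 and 254 CPM in KO, against 247, 284 and 209 CPM in WT, lowest of the KO libraries in KO replicate 1.

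**Figure D4:**
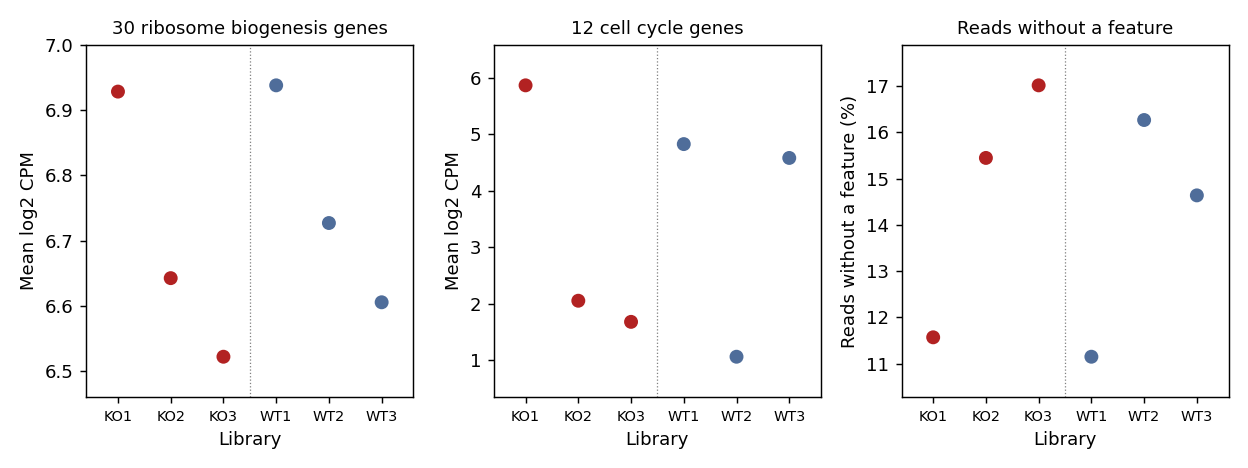
Mean log2 CPM of the 30 ribosome biogenesis genes and of 12 cell cycle genes, and percent of reads without a feature (y axes, not from 0), in each KO and WT library (x axes; WT2 is the library labelled WT replicate 2). The first panel is highest in KO replicate 1 and WT replicate 1, where the third is lowest at 11.57% and 11.15%, and WT replicate 3 is high only in the second.

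Leaving out a library moved the members' median across 0. It was -0.15 without KO replicate 1, with 27 of 30 fold changes negative, and -0.12 without WT replicate 3, with 25 negative. It was 0.03 without KO replicate 3 (18 positive) and 0.01 without WT replicate 1 (16 positive). Without the library labelled WT replicate 2, which lay inside the KO range for Opa1, it was -0.04 with 9 positive, and without KO replicate 2 it was -0.03. Only without KO replicate 1 did any member reach an unadjusted p under 0.05. These were Ddx21 (log2 fold change -0.59, unadjusted p 0.00692) and Nip7 (-0.42, unadjusted p 0.0397), where 2.4% of all genes were lower in KO at that level, and both had an adjusted p of 1 in edgeR's test. The sign was the same with each library left out for 8 members.

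**Figure D5:**
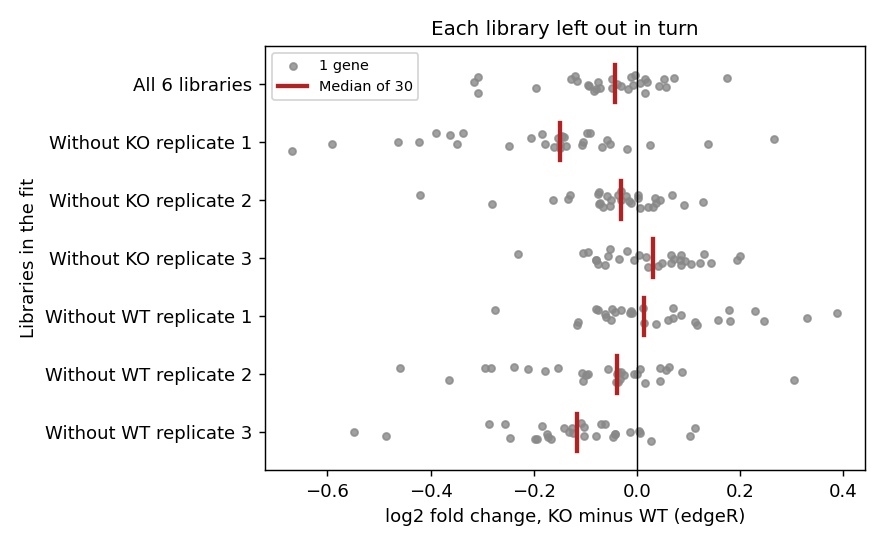
Log2 fold changes (KO minus WT, x axis) of the 30 genes (grey points) and their median (red bar) with all 6 libraries and with each library left out (y axis; WT replicate 2 is the library so labelled). The median runs from -0.15 without KO replicate 1 to 0.03 without KO replicate 3.

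Features of the genes other than their function were also compared. The 30 genes lie on 16 chromosomes. In GENCODE M21, 7 of the 30 (23.3%) hold at least 1 snoRNA gene on the same strand, 21 snoRNA genes in all, against 1.27% of 22028 protein-coding genes. These hosts are Ncl, Nop56, Nop58, Dkc1, Gnl3, Wdr43 and Tsr1, with 5 snoRNA genes in Nop56 and 4 in Nop58. Snord57 and Snord110 lie in Nop56, Snord11 and Snord70 in Nop58, and Snord19 and Snord69 in Gnl3. The hosts had 2 positive and 5 negative fold changes with a median of -0.08, and KO replicate 1 was the highest KO library for all 7. SnoRNAs themselves were not analysed here. The 6 members with an E-box had 2 positive and 4 negative fold changes with a median of -0.03, beside -0.05 for the 19 members with a promoter entry and no E-box.

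Other genes of the pathway had, as a list, group means that differed by less than the spread within either group. Over 93 further genes of RNA polymerase I, snoRNPs and both subunits, the mean log2 CPM was 5.88 ± 0.14 in KO and 5.93 ± 0.11 in WT (SD, n = 3 each). By edgeR 0 were called, against 0% of all genes tested, so the missing calls do not show that single genes were unchanged. Of the fold changes 30 were positive and 63 negative, and the median was -0.05. Of 36 further large-subunit factors 7 were positive (median -0.09), of 32 small-subunit factors 13 (-0.02), of 13 snoRNP factors 6 (-0.04) and of 12 polymerase I factors 4 (-0.03). The smallest unadjusted p was that of Riok1, a kinase of late small-subunit maturation, at 70.0, 55.8 and 70.5 CPM in KO, against 85.5, 87.3 and 83.2 CPM in WT (log2 fold change -0.38, SE 0.14, unadjusted p 0.0304, edgeR). All 3 KO libraries lay below all WT libraries, as for 3.12% of all genes, and its adjusted p was 0.99998. Riok1 was 1 of 4 among the 93 genes with that order, and 3 had every KO library above every WT library, as for 3.43% of all genes. Utp15 of the small-subunit processome had a log2 fold change of 0.25, the large-subunit factors Nifk and Senp3 -0.29 and 0.23, the snoRNP factors Znhit6 and Nop10 -0.37 and -0.21, and the polymerase I factors Ubtf and Taf1d -0.26 and 0.18. KO replicate 1 and WT replicate 1 were the 2 highest libraries for 39 of the 93 genes (41.9%). The low end of the members' order was shared only in part. WT replicate 3 was the lowest for 9 of the 93 (9.68%), against 30% of members and 20.1% of the 8981 genes. KO replicate 2 was the lowest for 29 (31.2%) and KO replicate 3 for 26 (28%), against 17.3% and 15.7% of the 8981 genes. Exosome subunits, which trim the 3′ ends of rRNA precursors, had 5 of 13 positive (median -0.06), with Exosc9 at -0.50 (SE 0.24) and Exosc1 at -0.20 (SE 0.18). The MYC network had 7 of 11 positive (median 0.07), with Max at 0.17 (SE 0.14) and Mxd1 at -0.29 (SE 0.30). With a library left out, Mxd1 ran from -0.497 to 0.0017, Max from 0.062 to 0.230, Ubtf from -0.467 to -0.079 and Exosc1 from -0.394 to -0.100. In each of these lists 0 genes were called.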

How the data were processed

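For each library the authors deposited raw gene counts (49652 gene rows and 5 summary rows) and applied no scaling to them. Reads were trimmed, aligned and counted on GRCm38 with tools that the submitters' processing notes list as HTSeq 0.6.1p2, STAR 2.6.0c, cutadapt 2.5 and Trim Galore 0.5.0, beside DESeq2 and edgeR. Neither the annotation release nor the strand setting is given in the sources used here. The summary rows entered no test and no library size. Unassigned reads without a feature were 11.15% to 17.02%, ambiguous reads 1.21% to 1.42% and reads aligned more than once 14.82% to 24.57%, so levels of genes with near-identical copies are uncertain. Symbols, positions and exon lengths came from GENCODE M21 (49399 rows matched). No 2 libraries of a group were alike within sampling noise (mean chi-square per gene at least 46.8).

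Computation used R 4.3.3, edgeR 4.0.16, limma 3.58.1, DESeq2 1.42.0 and Python 3.11.15. KO was compared with WT by edgeR's quasi-likelihood test (robust, TMM, no covariate, the package's filter, which kept 18832 genes and all 30 members), with Benjamini-Hochberg adjustment over those genes and a threshold of 0.05. Fold changes used a prior count of 0.125 and per-library list means log2 CPM with a prior count of 2. Each standard error is the size of the log2 fold change over the root of its F statistic. The scripts were tested on simulated counts. The members and lists were chosen with earlier results of these data known, so lists are described by counts and medians without a test. All 30 members are named, with the 2 smallest p of each further list, the state and gate genes and the 2 most abundant genes of each marker list. Marker genes at an unadjusted p under 0.05 were added after their values were seen, as were the counts of the other fibro-adipogenic markers. Alternatives were other scalings, no filter, protein-coding nuclear genes only, DESeq2, limma voom, a replicate block and each library left out.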

Additional observations from a re-analysis of the deposited data

How the results depend on the processing

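No member was called by edgeR, DESeq2 or limma voom with all 6 libraries, or by edgeR under another scaling, without the filter, in protein-coding nuclear genes, with the replicate block or with each library left out. The same held for the 93 further pathway genes. Over all genes edgeR called 0 in each of these runs, with 324 to 864 genes at an unadjusted p under 0.05, and DESeq2 called 20; the cause was not tested. With the replicate block the members' median was -0.044, 10 were positive, and 0 genes were called. Same-numbered libraries deviated together at 0.245, 0.105 and -0.0721 for numbers 1 to 3, so the numbers were not taken to pair the libraries. The members' median stayed between -0.068 and -0.044 under the alternatives that kept all 6 libraries. Of 210 member values under those alternatives, 11 had the other sign, all near 0. With upper-quartile scaling these were Ncl (-0.0058), Fbl (-0.00010), Pa2g4 (-0.0049) and Bop1 (-0.0108), and without the filter Ncl (-0.0096), Fbl (-0.0084), Pa2g4 (-0.0072) and Bop1 (-0.0185). Bop1 was at -0.00013 in protein-coding nuclear genes, and Nop2 at 0.0153 with the replicate block and 0.0138 by limma voom. With a library left out, 44 of 180 member values had the other sign, in 22 members. Their log2 fold changes then ran from -0.098 to 0.085 for Ncl, -0.363 to 0.022 for Nop58, -0.080 to 0.179 for Fbl, -0.206 to 0.193 for Dkc1, -0.184 to 0.180 for Nop2, -0.074 to 0.084 for Nop16, -0.146 to 0.129 for Pa2g4, -0.011 to 0.138 for Polr1a, -0.338 to 0.071 for Polr1b, -0.106 to 0.102 for Polr1c and -0.154 to 0.330 for Rrp9. They ran from -0.486 to 0.084 for Rrp12, -0.125 to 0.116 for Rrs1, -0.349 to 0.018 for Nolc1, -0.184 to 0.105 for Gnl3, -0.246 to 0.045 for Wdr43, -0.092 to 0.049 for Wdr12, -0.179 to 0.388 for Bop1, -0.102 to 0.246 for Pes1, -0.212 to 0.113 for Heatr1, -0.141 to 0.038 for Mybbp1a and -0.390 to 0.070 for Tsr1. The other 8 kept their sign, from -0.668 to -0.0747 for Bysl, -0.591 to -0.163 for Ddx21, -0.422 to -0.0797 for Nip7, -0.249 to -0.00503 for Nop56, -0.149 to -0.0613 for Npm1, -0.138 to -0.0343 for Ebna1bp2, -0.063 to -0.0389 for Nop14 and 0.00509 to 0.304 for Utp20.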

Other observations

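Markers of the stem cells and of other cell types of muscle were measured in the same libraries, and edgeR called 0 of each list, with 2 of 8 stem cell markers, 1 of 8 fibro-adipogenic markers and 0 of every other marker list at an unadjusted p under 0.05. The 8 stem cell markers had a mean log2 CPM of 8.51, 8.57 and 8.46 in KO, against 8.89, 8.39 and 8.69 in WT, with Vcam1 at 1235 ± 149 CPM in KO and 1250 ± 191 CPM in WT and Myf5 at 990 ± 226 CPM in KO and 1221 ± 156 CPM in WT (SD, n = 3 each). The list had 3 positive and 5 negative fold changes. The markers at an unadjusted p under 0.05 were Calcr, at 178, 165 and 228 CPM in KO against 273, 229 and 349 CPM in WT (log2 fold change -0.58, SE 0.20), and Chrdl2, at 144, 178 and 137 CPM in KO against 295, 137 and 479 CPM in WT (-0.99, SE 0.41). Chrdl2 in the library labelled WT replicate 2 lay below all KO libraries. Both were named after their values were seen, and with a library left out Chrdl2 ran from -1.34 to -0.50. Summed endothelial markers were 24.6 to 76.8 CPM in KO and 10.4 to 77.8 CPM in WT, with Pecam1 at 11.5 ± 9.66 CPM in KO and 14.7 ± 7.95 CPM in WT and Egfl7 at 10.3 ± 4.62 CPM in KO and 11.3 ± 9.14 CPM in WT. Summed leukocyte markers were 6.47 to 18.2 CPM in KO and 7.85 to 17.1 CPM in WT, led by Cd68 and Lyz2, and Ptprc was at 0 counts in KO replicate 1, WT replicate 1 and the library labelled WT replicate 2. Ly6a stood at 10.4 ± 7.69 CPM in KO and 10.6 ± 5.17 CPM in WT.

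Mature fibre markers summed to 200 to 469 CPM in KO and 237 to 603 CPM in WT, led by Acta1 and Atp2a1. Mural markers summed to 406 to 807 CPM in KO and 510 to 1085 CPM in WT, led by Acta2 and Rgs5. Acta2 made up most of these sums, at 740, 260 and 286 CPM in KO, against 981, 313 and 504 CPM in WT. Rgs5 had 39.4, 110.4 and 142 CPM in KO, against 56.1, 144 and 65.6 CPM in WT, lowest in the 2 libraries in which Acta2 was highest. The mean log2 CPM of the 6 mural markers was 4.13, 4.52 and 4.36 in KO, against 4.72, 4.70 and 4.13 in WT. Schwann cell markers, led by Pmp22 and Mbp, summed to 568 to 807 CPM in KO and 370 to 786 CPM in WT. Pmp22 made up most of these sums, at 761, 524 and 537 CPM in KO, against 724, 599.8 and 356 CPM in WT. The mean log2 CPM of this list was 3.387, 3.406 and 4.463 in KO, against 3.598, 4.416 and 1.625 in WT. Within KO, this mean was highest in KO replicate 3 and the sum in KO replicate 1. Within WT, the mean was highest in the library labelled WT replicate 2 and the sum in WT replicate 1. Tenocyte markers, led by Mkx and Thbs4, summed to 8.09 to 16.2 CPM in KO and 7.65 to 15.3 CPM in WT. Erythroid genes, led by Hbb-bs and Hba-a1, summed to 33.0 to 257 CPM in KO and 99.1 to 422 CPM in WT, where reads of near-identical globin copies are uncertain. Fibro-adipogenic markers summed to 5779 to 6286 CPM in KO and 4457 to 6189 CPM in WT, led by Gsn and Col3a1, each at 596 CPM or more in every library. That sum rests on Gsn, Col3a1 and Dpt, each with at least 26339 counts in every library. Counts of the other markers were lower, at 1532 to 4797 for Dcn, 179 to 1243 for Lum and 242 to 1090 for Ly6a. Pi16 had 40 to 352 counts and Pdgfra 1 to 145. Of this list 4 fold changes were positive and 4 negative, with a median of 0.016. Gsn averaged 4554 ± 263 CPM in KO and 3239 ± 1160 CPM in WT (log2 fold change 0.49, SE 0.28), and Col3a1 681 ± 115 CPM in KO and 1097 ± 327 CPM in WT (-0.69, SE 0.25, the marker at an unadjusted p under 0.05). Top2a had 141, 2.80 and 2.52 CPM in KO, against 52.5, 1.48 and 54.0 CPM in WT.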
